A study of Mus musculus with 6 samples.

Results

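The genes described here encode the CatSper calcium channel of the sperm tail together with a sperm potassium channel and a proton channel. They were taken by gene name from the deposited table: 10 genes of the 54532 listed, made up of 4 pore subunits of CatSper (Catsper1, Catsper2, Catsper3 and Catsper4), 4 genes of its auxiliary subunits (Catsperb, Catsperd, Catsperg1 and Catsperg2), the potassium channel gene Kcnu1 and the proton channel gene Hvcn1. All 10 names were found once in the table and all 10 genes are annotated there as protein-coding. Messenger RNA was sequenced in 3 control libraries, labelled with the genotype Cre, and 3 knockout libraries, whose treatment is given as conditional knockout, all from mouse testis and from cells described as STRA8+. STRA8 marks germ cells entering meiosis under retinoic acid. The labels do not state the deleted gene, the promoter that drives Cre, the strain, the age of the mice or whether each library came from its own animal. Their extraction text speaks of retinas, whereas the other labels name testis. The p-values thus cover only library-to-library spread, and part or all of it may be technical.

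CatSper is the principal calcium channel of the sperm flagellum. Its pore is built from the 4 different CatSper subunits, and it opens when the inside of the sperm cell becomes alkaline, which allows the vigorous, hyperactivated tail beat needed for fertilization. The potassium channel SLO3, the product of Kcnu1, sets the membrane voltage of mouse sperm, and the proton channel HV1, the product of Hvcn1, lets protons leave a cell. Genes of the flagellum are transcribed late in male germ cell development, in spermatocytes and in haploid spermatids.

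The libraries held 14532453 to 16963019 reads in control libraries, against 14770320 to 15204127 in the knockout. Bcas2, a splicing factor gene that the title of the study names, had 19.8, 19.3 and 20.5 FPKM (fragments per kilobase of gene and per 1000000 fragments, as scaled by the authors) in control libraries, against 4.78, 4.38 and 5.40 FPKM in the knockout. Stra8 had 11.5, 22.6 and 17.0 FPKM in control libraries, against 125.4, 136.8 and 136.2 FPKM in the knockout. A list of 19 spermatid markers summed to 20176 to 23535 FPKM in control libraries, against 17.1 to 20.9 FPKM in the knockout, although the labels give the same cell type for both groups. A list of 18 pachytene and diplotene markers summed to 8145 to 9719 FPKM in control libraries, against 127.8 to 173.5 FPKM in the knockout, with 1 marker, Ldhal6b, at 0 in every library. Of these lists, 19 of 19 spermatid markers and 17 of 17 pachytene and diplotene markers tested were called lower. A list of 16 markers of spermatogonia and meiotic entry went the other way, from sums of 172.1 to 261.6 FPKM to sums of 984.0 to 1169 FPKM, with 13 called higher and 2 lower. Sertoli cell markers summed to 193.8 to 389.9 FPKM and then 738.2 to 1258 FPKM, with 13 of 13 tested called higher, and Leydig cell markers to 96.2 to 162.4 FPKM and then 25.9 to 85.7 FPKM, with 2 of 8 called higher and 4 lower. As deposited, 50.4% of all genes tested were called lower and 36.2% higher, and that balance depended on the scaling. The Leydig counts were near these shares. Genes were tested where their mean over both groups reached 1 FPKM. A marker under that mean in either group passed only through the other, so the marker counts are a description. In such bulk samples, fewer cells of a type and less RNA per cell cannot be told apart, and the part of cell make-up in the values below was not tested.

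The start sites of 3 pore subunit genes are shown because their genes kept different fractions of the control level in the knockout: Catsper2 kept the most among the pore genes, and Catsper3 and Catsper4 kept less. Each sequence runs from 250 bases before to 50 bases after the start of the gene on the gene's strand, from RefSeq on GRCm38.p6, the assembly that mm10 represents. Capitals mark TGACG, the core letters of the cAMP-response element, or GTTGCC, letters bound by RFX factors, in either orientation.
Catsper2, chr2:121413743-121414042, minus strand: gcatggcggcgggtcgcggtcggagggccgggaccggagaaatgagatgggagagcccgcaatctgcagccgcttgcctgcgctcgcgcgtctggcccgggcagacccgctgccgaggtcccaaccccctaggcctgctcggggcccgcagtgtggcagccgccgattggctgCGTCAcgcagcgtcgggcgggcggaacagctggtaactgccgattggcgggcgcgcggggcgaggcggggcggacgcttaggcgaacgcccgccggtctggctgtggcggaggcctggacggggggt
Catsper3, chr13:55784329-55784628, plus strand: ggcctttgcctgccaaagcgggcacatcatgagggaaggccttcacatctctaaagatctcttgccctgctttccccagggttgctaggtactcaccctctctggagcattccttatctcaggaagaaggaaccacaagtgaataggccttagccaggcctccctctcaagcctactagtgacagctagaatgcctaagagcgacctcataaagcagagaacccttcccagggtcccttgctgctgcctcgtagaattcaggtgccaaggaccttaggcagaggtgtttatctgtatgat
Catsper4, chr4:134227334-134227633, minus strand: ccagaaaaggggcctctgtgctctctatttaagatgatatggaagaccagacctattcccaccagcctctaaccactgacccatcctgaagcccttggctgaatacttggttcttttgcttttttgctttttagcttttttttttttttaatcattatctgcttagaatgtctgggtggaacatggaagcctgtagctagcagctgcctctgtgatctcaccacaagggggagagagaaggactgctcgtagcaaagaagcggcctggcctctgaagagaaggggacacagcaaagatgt
TGACG, searched on both strands, had 1 match in the Catsper2 window, in reverse orientation, and had 0 matches in the windows of Catsper3 and Catsper4. It was found in 20.8% of all 32851 promoter windows of this length in the table. The letters GTTGCC were in 12.5% of all windows and had 0 matches in these 3. Also searched were the full element TGACGTCA, the MYB core AACNG and the TATA box TATAAA, found in 1.79%, 80.3% and 13.6% of all windows. AACNG had 2 matches in the Catsper2 window and 0 in the other windows shown, and the other letters had 0 in these 3. The G and C content was 74.7% for Catsper2, 52.3% for Catsper3 and 46.7% for Catsper4. A match or its absence describes only these letters in these windows. Exons of Catsper2 overlap those of the gene Pdia3 on the opposite strand. Whether the Catsper2 window also holds the start of Pdia3 was not examined. RefSeq windows were matched for 6 of the 10 genes, and Catsper1, which kept the least of the pore genes, had none. Among those not shown, Catsperg1, which kept more than Catsper2 (3.37% against 2.04%), had 0 TGACG matches in either window. Catsperd had 3 in 1 window and 0 in the other, and Catsperb had 0. The G and C content was 48.3% and 59.3% for Catsperg1, 66.7% and 53% for Catsperd and 38% for Catsperb. A link between these letters and the level kept was not tested.

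Transcripts of the 4 pore subunits fell from means of 68.9 to 154.3 FPKM in the controls to means of 0.0160 to 3.15 FPKM in the knockout. Catsper1, on chromosome 19 at 5335741 to 5344153, encodes the subunit with the long histidine-rich tail. Catsper1 had 85.7, 82.2 and 81.2 FPKM in control libraries, against 0, 0.0480 and 0 FPKM in the knockout. No knockout value came near a control value, and only knockout replicate 2 had any reads (2 of them, against 6061 in the 3 controls). The scaled read ratio was 5343 with an exact 95% interval of 1479 to 44132, which covers counting error only; without knockout replicate 2 the level was at least 2411-fold lower, taking a floor of 3 reads over the remaining knockout libraries. On the log2(FPKM + 0.5) scale, which understates falls to near 0, the fold change of Catsper1 was -7.34 ± 0.101 (SE) with a limma adjusted p of 1.0e-09. Only 346 of the 16791 genes tested (2.06%) had a lower log2 fold change. For genes near 0 in the knockout that rank also depends on the control level. Catsperz, of the CatSper complex, kept 0.141% of its control mean against 0.0193% for Catsper1, yet had only 72 genes below it.

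Catsper3 and Catsper4, the other pore genes with almost no knockout signal, lie on chromosome 13 at 55784568 to 55808998 and on chromosome 4 at 134211970 to 134227383. Catsper3 had 77.3, 65.5 and 63.8 FPKM in control libraries, against 0.102, 0.0363 and 0.0355 FPKM in the knockout, which rest on 3, 1 and 1 reads. Catsper4 had 76.5, 68.7 and 62.2 FPKM in control libraries, against 0, 0.141 and 0.0230 FPKM in the knockout, which rest on 0, 6 and 1 reads. Their control levels overlapped, and in the knockout both were close to the limit of detection. The log2 fold changes were -6.96 ± 0.121 (SE) for Catsper3 and -6.98 ± 0.140 (SE) for Catsper4, with limma adjusted p of 1.8e-09 and 2.9e-09. The scaled read ratios were 1163 (exact 95% interval 497.7 to 3583) and 1290 (625.7 to 3211); without knockout replicate 2, which held 6 of the 7 knockout reads of Catsper4, its ratio was 6111 (1096 to 241433).

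Catsper2 was the most abundant of the 10 genes in both groups and kept a clear knockout signal. The gene lies on chromosome 2 at 121392631 to 121413792 and encodes a pore subunit that is lost, together with a neighbouring gene, in a human syndrome of deafness and male infertility. Its level was 171.9, 125.9 and 165.1 FPKM in control libraries, against 3.16, 3.32 and 2.97 FPKM in the knockout. The knockout values rest on 253, 248 and 227 reads and lie close together. The mean fell from 154.3 ± 24.8 to 3.15 ± 0.176 FPKM (SD, n = 3 in each group), 49.0-fold, with a log2 fold change of -5.39 ± 0.131 (SE) and a limma adjusted p of 7.2e-09. Its exons share 18 bases, 0.487% of their length, with Pdia3 on the opposite strand, an enzyme gene of the endoplasmic reticulum. Pdia3 had 208.7, 180.0 and 197.7 FPKM in control libraries, against 165.5, 172.5 and 177.1 FPKM in the knockout, and it was not called (limma adjusted p = 0.086).

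**Figure D1:**
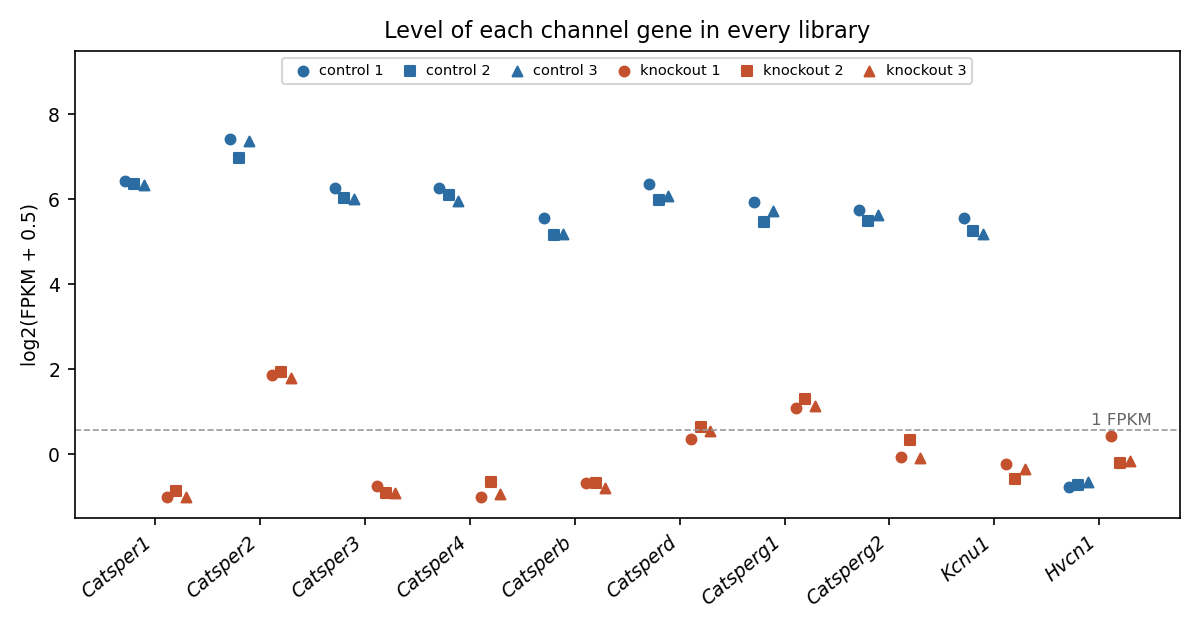
Level of the 10 channel genes in each library as log2(FPKM + 0.5), with blue controls and red knockout libraries and a marker shape for each replicate number. The dashed line is 1 FPKM; 9 genes lie far lower in every knockout library, while Hvcn1 lies under the line in all 6 libraries and higher in the knockout.

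The auxiliary subunits, which wrap the pore on the outside of the cell, also fell, and each of the 4 genes had reads in every knockout library. Catsperd, on chromosome 17 at 56628143 to 56664456, encodes a subunit needed for a stable channel. It had 81.4, 63.0 and 67.7 FPKM in control libraries, against 0.785, 1.06 and 0.968 FPKM in the knockout. Catsperb, on chromosome 12 at 101404653 to 101626009, encodes the beta subunit. It had 46.8, 35.4 and 35.9 FPKM in control libraries, against 0.125, 0.125 and 0.0787 FPKM in the knockout, so it fell further than the other auxiliary genes on the same scale. The log2 fold changes were -5.63 ± 0.132 (SE) for Catsperd and -6.02 ± 0.141 (SE) for Catsperb, each with a limma adjusted p of 6.0e-09.

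Catsperg1 and Catsperg2 are related copies on chromosome 7, at 29181321 to 29214035 and 29697219 to 29727032, that encode forms of the gamma subunit. Catsperg1 had 60.9, 43.5 and 52.9 FPKM in control libraries, against 1.62, 1.97 and 1.71 FPKM in the knockout. Catsperg2 had 53.4, 44.3 and 49.2 FPKM in control libraries, against 0.467, 0.759 and 0.440 FPKM in the knockout. The copies overlapped in the controls, whereas in the knockout every Catsperg1 value exceeded every Catsperg2 value. The log2 fold changes were -4.53 ± 0.141 (SE) and -5.56 ± 0.146 (SE), with limma adjusted p of 2.7e-08 and 1.1e-08. Their transcripts share sequence: 43.0% of the 50-base words in GENCODE M21 transcripts of Catsperg1 also occur in Catsperg2, and 44.1% of those of Catsperg2 occur in Catsperg1. How reads that map to both copies were counted is unknown from the sources at hand, and the split between them is uncertain.

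Kcnu1, on chromosome 8 at 25849623 to 25937939, had 46.7, 37.7 and 35.8 FPKM in control libraries, against 0.359, 0.172 and 0.284 FPKM in the knockout. The knockout values rest on 29, 13 and 22 reads. Its mean fell 147.6-fold, from 40.1 ± 5.80 to 0.272 ± 0.0940 FPKM (SD, n = 3 in each group), with a log2 fold change of -5.71 ± 0.150 (SE) and a limma adjusted p of 1.0e-08. Lrrc52, the auxiliary subunit of SLO3, had 33.0, 33.2 and 31.7 FPKM in control libraries, against 1 read in the knockout, in replicate 1. Both genes of that channel were thus low or undetected in each knockout library, with a log2 fold change for Lrrc52 of -6.01 ± 0.111 (SE) and a limma adjusted p of 2.1e-09.

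Of the 10 genes, 9 passed the filter, a mean over both groups of 1 FPKM or more, and limma called all 9 lower and 0 higher, where 50.4% of the genes tested were called lower and 36.2% higher. That balance depended on the scaling: 6084 genes were called lower and 9109 higher with FPKM rescaled to sum to 1000000, 6187 and 8745 after quantile normalization, and 6527 and 8491 per 1000000 reads, against 8462 and 6075 as deposited. The 9 members were called lower under each of these. Of those 9, 7 had a knockout mean under 1 FPKM and passed only through the controls, so the count is a description. A call at or under -4 on the log2 scale, which each of the 9 had, was made for 12.7% of the genes tested, and one at or under -1 for 41.1%. In 9 genes every knockout value lay below every control value, as in 51.1% of the genes tested; the reverse order held in 36.9% of them and in 1 of the 10 members, Hvcn1. With no filter, 9 of the 10 genes were called lower and 1, Hvcn1, higher, against 32.8% and 21.6% of 37309 genes.

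The fold changes depended on how the libraries were scaled, though not in direction. Over the genes tested, the median log2 fold change was -0.41 with the deposited values and 0.71 with FPKM rescaled to sum to 1000000. Over the deposited scaling and 4 others, Catsper1 ranged from -8.28 to -5.94, Catsper2 from -5.39 to -4.25, and Catsperg1, the least changed of the 9, from -4.53 to -3.53. Relative to the median of all genes, the deposited values of the 3 genes were -6.93, -4.98 and -4.12.

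**Figure D2:**
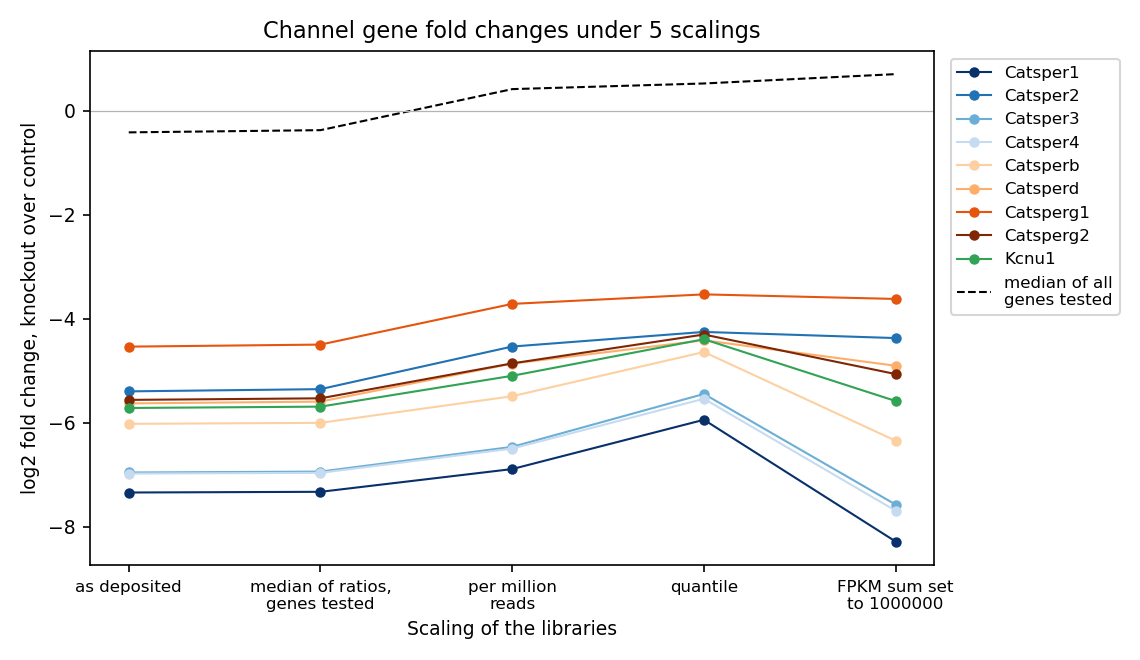
Log2 fold change, knockout over control, of the 9 channel genes tested under 5 scalings of the libraries, with the median of all genes tested as a dashed line. All 9 lines stay below -3 under each scaling, and Catsperg1 lies highest and Catsper1 lowest in each.

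A scaling that multiplies a whole library by 1 factor leaves the make-up of its CatSper transcripts as it is; quantile normalization is not of that kind, and the shares below are from the deposited values. The 8 CatSper genes together summed to 653.9, 528.6 and 578.0 FPKM in control libraries, against 6.26, 7.46 and 6.23 FPKM in the knockout. Catsper2 made up 26.3%, 23.8% and 28.6% of the sum in control libraries, against 50.5%, 44.5% and 47.7% in the knockout. Catsperg1 made up 9.32%, 8.23% and 9.16% in control libraries, against 25.9%, 26.4% and 27.5% in the knockout. Catsperd made up 12.5%, 11.9% and 11.7% in control libraries, against 12.5%, 14.2% and 15.6% in the knockout, where its lowest share (12.54%) was just above the highest control share (12.45%). These 3 genes took larger shares in every knockout library than in any control library, Catsperd by the smallest margin.

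Catsper1, Catsper3 and Catsper4 together with Catsperb took smaller shares. The mean share of Catsper1 went from 14.2 ± 1.24% to 0.214 ± 0.371% (SD, n = 3), of Catsper3 from 11.8 ± 0.677% to 0.894 ± 0.635%, of Catsper4 from 11.8 ± 1.12% to 0.754 ± 1.003%, and of Catsperb from 6.69 ± 0.477% to 1.65 ± 0.371%. The mean share of Catsperd was 12.0 ± 0.378% and then 14.1 ± 1.51%. Catsperg2 had 8.35 ± 0.174% and 8.23 ± 1.70%, and its groups overlapped. An exact two-sided permutation test gave p = 0.1 for 7 of the 8 shares, the smallest that 3 against 3 libraries allow, and p = 1 for Catsperg2. Adjusted over the 8 shares by the Benjamini-Hochberg method, the 7 were at 0.114 in the exact permutation test, so none passed 0.05. Shares add up to a whole and are not independent of each other.

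**Figure D3:**
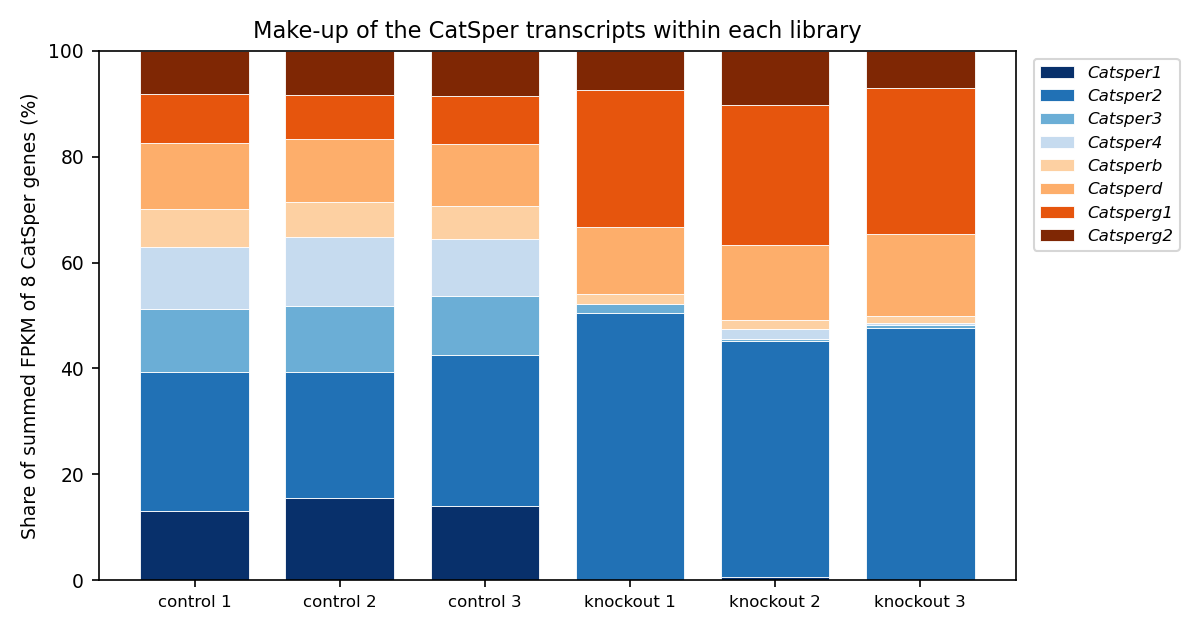
Share of the summed FPKM of the 8 CatSper genes taken by each gene in each library, in percent, with pore subunits in blue and auxiliary subunits in orange and brown. Catsper2 and Catsperg1 fill most of the knockout bars, while Catsper1, Catsper3, Catsper4 and Catsperb are thin there.

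The same values can be read as ratios within a library, for pairs chosen after their shares were seen and so with no test. Catsper2 stood at 2.22, 1.92 and 2.59 times Catsper3 in control libraries, against 31.1, 91.4 and 83.6 times in the knockout, the latter over 1 to 3 reads of Catsper3. Catsperg1 stood at 1.14, 0.983 and 1.08 times Catsperg2 in control libraries, against 3.47, 2.60 and 3.90 times in the knockout. As a fraction of the control mean, the knockout mean was 3.37% for Catsperg1, 2.04% for Catsper2, 1.33% for Catsperd, 1.13% for Catsperg2, 0.678% for Kcnu1 and 0.279% for Catsperb. It was 0.0840% for Catsper3, 0.0791% for Catsper4 and 0.0193% for Catsper1. Beside these, the spermatid markers had a median of 0.102% (0.00751% to 2.25%), and the pachytene and diplotene markers with any reads had a median of 0.379% (0.0168% to 43.4%).

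Levels per gene length also ordered the genes within the controls. Catsper2 was above every other gene of the 10 in each control library, at 125.9 FPKM or more against 85.7 FPKM or less. Below it, the ranges of Catsper1 (81.2 to 85.7), Catsperd (63.0 to 81.4), Catsper4 (62.2 to 76.5) and Catsper3 (63.8 to 77.3) overlapped between neighbours, as did those of Catsperg1 (43.5 to 60.9), Catsperg2 (44.3 to 53.4), Kcnu1 (35.8 to 46.7) and Catsperb (35.4 to 46.8). Hvcn1 was lowest, at 0.137 FPKM or less. In the knockout the order was Catsper2, then Catsperg1, without overlap between them, then Catsperd, again without overlap with Catsperg1. Next by mean came Catsperg2 (0.440 to 0.759) and Hvcn1 (0.375 to 0.856), which overlapped each other, and Hvcn1 also overlapped Catsperd (0.785 to 1.06).

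Hvcn1 differed from the other members in level and direction. The gene lies on chromosome 5 at 122206804 to 122242297, and its proton channel is also known from macrophages and B cells. It had 0.0839, 0.107 and 0.137 FPKM in control libraries, against 0.856, 0.375 and 0.393 FPKM in the knockout, from 3, 5 and 6 reads and 66, 27 and 29 reads. Each knockout value exceeded each control value, an order found in 24.7% of the genes with any signal, and replicate 1 was the highest. The mean was 0.109 ± 0.0265 FPKM in control libraries, against 0.541 ± 0.273 FPKM in the knockout (SD, n = 3 in each group). The scaled read ratio, knockout over control, was 4.94 with an exact 95% interval of 2.84 to 9.31 for counting error.

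Hvcn1 did not pass the filter and so had no test in the fit as designed. In the fit with no filter its log2 fold change was 0.74 ± 0.198 (SE) with a limma adjusted p of 0.0176. That call ended when control replicate 1, 2 or 3 was left out, at limma adjusted p of 0.0705, 0.0643 and 0.0526, and held without knockout replicate 1, at 0.54 with an adjusted p of 0.0058. Of its exon bases, 44.2% lie opposite exons of Tctn1, a gene of the ciliary transition zone, and without strand in the counting the reads of the 2 genes cannot be told apart there. Tctn1 had 7.95, 7.50 and 7.06 FPKM in control libraries, against 2.09, 2.64 and 2.31 FPKM in the knockout, so it moved in the opposite direction to Hvcn1 (log2 fold change -1.49 ± 0.122 (SE), limma adjusted p 8.8e-06).

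Macrophages are among the cells that hold HV1. A list of 15 macrophage markers summed to 68.1, 115.9 and 86.5 FPKM in control libraries, against 347.5, 110.1 and 137.0 FPKM in the knockout, with knockout replicate 1 highest, as for Hvcn1. The groups overlapped for this sum. In the knockout libraries the Sertoli marker sums were 1258, 843.2 and 738.2 FPKM and the Leydig marker sums 85.7, 49.5 and 25.9 FPKM. Replicate 1 was thus highest for these lists too, while the germ cell lists and the B and T cell list were highest in replicate 2 or 3. Of 12 macrophage markers tested, 5 were called higher, 0 lower and 7 neither, beside 36.2% of all genes called higher and 50.4% lower, and each of the 15 had reads in both groups. A list of 12 B and T cell markers summed to 7.87 to 10.6 FPKM in control libraries, against 2.73 to 4.05 FPKM in the knockout, with 1 of 3 tested called higher and 2 lower, and 9 not tested. Ms4a1, a defining B cell marker, was at 0 in the 3 knockout libraries and at 0.193, 0.197 and 0.0656 FPKM in the controls, where it was already too low to test. The part of these cells in the level of Hvcn1 was not tested.

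**Figure D4:**
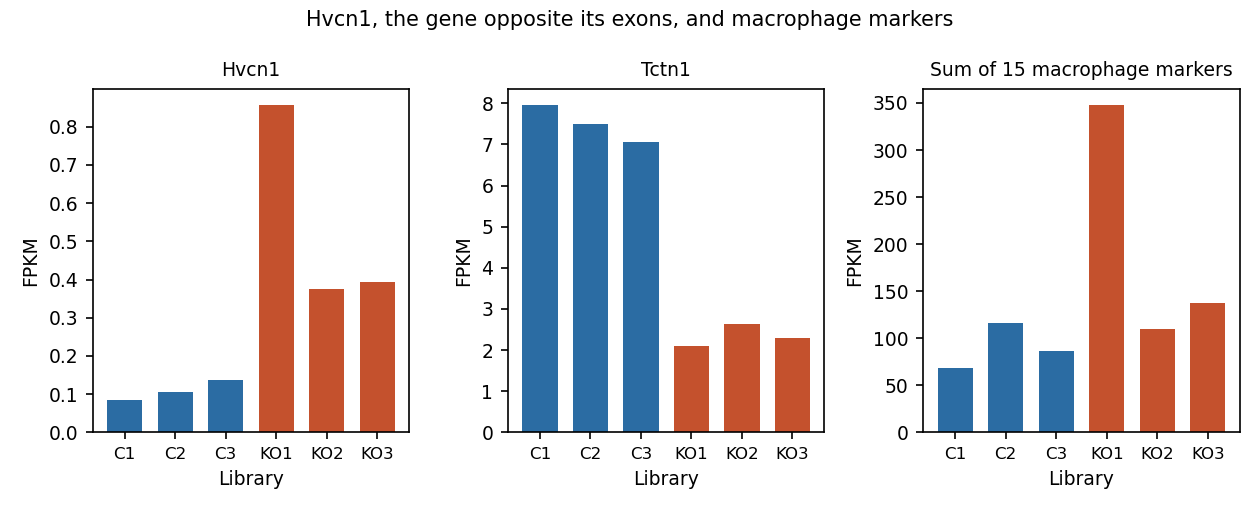
FPKM of Hvcn1, of Tctn1 on the opposite strand, and of the sum of 15 macrophage markers in the control (C, blue) and knockout (KO, red) libraries. Hvcn1 and the macrophage sum are highest in knockout replicate 1, and Tctn1 is lower in each knockout library than in each control. The Sertoli and Leydig marker sums, not shown, were also highest in knockout replicate 1.

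The remaining genes of the CatSper complex fell as well. All 9 listed genes were tested and called lower, beside 50.4% of all genes tested called lower and 36.2% higher. Their log2 fold changes ran from -8.88 to -3.56 with a median of -6.25, against -0.41 for all genes tested. Catspere1, Catsperz, Tmem249, Tmem262 and Slco6c1 had a knockout mean under 1 FPKM and passed the filter only through the controls. The count is therefore a description. Catsperz, the zeta subunit of the complex, was the most abundant, with 582.0, 516.5 and 539.4 FPKM in control libraries, against 0.355, 1.58 and 0.371 FPKM in the knockout. Efcab9, its calcium-sensing partner, had 242.8, 180.8 and 163.5 FPKM in control libraries, against 1.28, 1.47 and 1.20 FPKM in the knockout. C2cd6, which directs the channel to the flagellum, fell from 216.0 ± 30.6 to 3.81 ± 0.491 FPKM (SD, n = 3 in each group). These 3 genes were above Catsper2 in mean level in the controls.

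Slco6c1, a transporter-like component of the complex, kept 0.0348% of its control mean, the smallest fraction of these 9. It had 184.4, 134.2 and 126.3 FPKM in control libraries, against 0.0163, 0.122 and 0.0170 FPKM in the knockout, where 7 of 9 reads came from replicate 2. Its scaled read ratio was 2878 (exact 95% interval 1516 to 6296), and 8765 (2426 to 72382) without that library. Tmem249 and Tmem262, small membrane components, went from means of 72.2 ± 14.6 and 19.9 ± 1.47 FPKM to 0.0727 ± 0.0674 and 0.295 ± 0.359 FPKM (SD, n = 3 in each group). Trim69, a ubiquitin ligase found with the channel, went from 135.1 ± 15.1 to 1.35 ± 0.245 FPKM. The limma adjusted p of these 4 lay between 3.2e-09 and 1.1e-06.

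The epsilon subunit has 2 listed genes, and they differed in what was left. Catspere1, which the deposited table annotates as an unprocessed pseudogene, had 51.3, 43.5 and 44.3 FPKM in control libraries, against 0.0940, 0.184 and 0.0655 FPKM in the knockout. Catspere2 had 23.6, 20.7 and 20.4 FPKM in control libraries, against 1.20, 1.80 and 1.18 FPKM in the knockout. Catspere1 was the higher of the 2 in every control and the lower in every knockout library. Catspere2 stood at 0.460 to 0.475 times Catspere1 in control libraries, against 9.79 to 17.9 times in the knockout. The Catspere1 knockout values rest on 6, 11 and 4 reads. The 2 genes also share sequence, with 25.1% of the 50-base words of Catspere1 present in Catspere2. How reads that map to both were counted is unknown, and the split between them is uncertain.

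**Figure D5:**
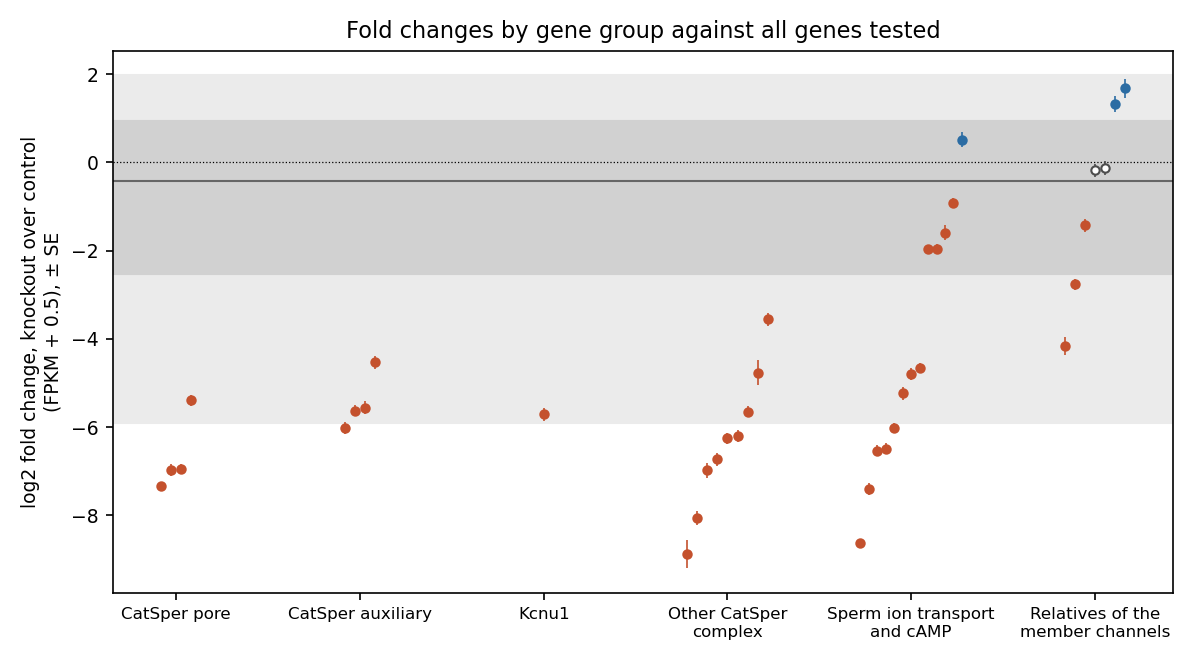
Log2 fold change, knockout over control, of each gene tested by group, with moderated SE as bars, red for called lower, blue for called higher and open for not called. The dark band holds the middle 50% and the light band the 5th to 95th percentile of all genes tested, with their median as a line at -0.41; the CatSper genes lie in or under the lower light band.

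Among 16 genes of sperm ion transport and cAMP signalling, 13 were tested, 12 were called lower and 1 higher, beside 50.4% and 36.2% of all genes, with a median log2 fold change of -4.81 against -0.41. With FPKM rescaled to sum to 1000000 or quantile normalization, 11 were called lower and 2 higher. Lrrc52, Slc9c1, Atp1a4, Adcy10, Pkdrej and Aqp7 had a knockout mean under 1 FPKM. They passed the filter only through the controls, and Slc26a6, called higher, only through the knockout. The counts are therefore a description. Slc9c1, the sperm sodium-proton exchanger that raises the internal pH, had 113.6, 92.3 and 86.6 FPKM in control libraries, against 0.0456, 0.122 and 0.0595 FPKM in the knockout. Adcy10, the bicarbonate-activated adenylyl cyclase, had 74.1, 62.2 and 57.1 FPKM in control libraries, against 0.190, 0.226 and 0.238 FPKM in the knockout. Atp1a4, the sperm form of the sodium pump, fell from 234.5 ± 12.4 to 0.0907 ± 0.0438 FPKM and had the lowest log2 fold change of this list, -8.64, with a limma adjusted p of 9.0e-10. These 3 genes were at 0.238 FPKM or less in each knockout library.

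Slc9b1, a sperm sodium-proton exchanger, and Slc26a8, an anion transporter, kept more, at 2.49 ± 0.441 and 2.56 ± 0.136 FPKM in the knockout against 82.7 ± 9.11 and 77.0 ± 9.46 FPKM in the controls (SD, n = 3 in each group). Pkdrej, a sperm surface protein of the polycystin family, and Aqp7, an aquaporin, had log2 fold changes of -5.24 and -6.54. Atp2b4, a plasma membrane calcium pump, Abhd2, a lipase that opens CatSper to progesterone in human sperm, and Cftr, a chloride channel, had log2 fold changes of -1.96, -1.97 and -1.59, and these kept their direction and call under each scaling.

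Prkaca, the catalytic subunit of protein kinase A, was called lower as deposited, at 73.0, 58.6 and 73.4 FPKM in control libraries, against 37.8, 34.7 and 34.5 FPKM in the knockout, but its log2 fold change of -0.92 turned to 0.26 with FPKM rescaled to sum to 1000000 and to 0.48 under quantile normalization (limma adjusted p of 0.036 and 0.0017). Slc26a6, an anion exchanger, was the 1 gene called higher, at 0.994, 1.04 and 0.660 FPKM in control libraries, against 1.63, 1.35 and 1.48 FPKM in the knockout. Its limma adjusted p was 0.024 with a log2 fold change of 0.52, and the call ended without any 1 of the 3 knockout libraries, at adjusted p of 0.089, 0.0538 and 0.0758, and with the replicate block, at 0.0507. Aqp3, Slc9b2 and Slc26a3 did not pass the filter. Aqp3 had 47 control reads and 2 knockout reads, while the other two had at most 12 reads in either group.

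A list of 16 relatives of the member proteins held voltage-gated calcium channels, two-pore channels, potassium channels and the phosphatase gene Tpte. Of these, 7 were tested, 3 were called lower, 2 higher and 2 neither, beside 50.4% lower and 36.2% higher of all genes, with a median log2 fold change of -0.18 against -0.41. Tpte passed the filter only through the controls, and Cacna1b and Kcnt1 only through the knockout, so the counts are a description. Cacna1h, a T-type calcium channel, went from 44.6 ± 4.61 to 6.16 ± 0.831 FPKM and Cacna1a, a P/Q-type channel, from 3.63 ± 0.379 to 1.03 ± 0.103 FPKM (SD, n = 3 in each group). Tpte, a testis voltage-sensing phosphatase with a sensor like that of HV1, had 11.9, 7.84 and 7.15 FPKM in control libraries, against 1 read in each knockout library. Cacna1b, an N-type channel, and Kcnt1, a sodium-activated relative of SLO3, rose from 0.506 ± 0.144 and 0.535 ± 0.179 to 2.03 ± 0.302 and 2.84 ± 0.729 FPKM. The two-pore channels Tpcn1 and Tpcn2 had log2 fold changes of -0.12 and -0.18 and were not called as deposited (limma adjusted p of 0.504 and 0.297); both were called higher with FPKM rescaled to sum to 1000000, at 0.99 and 0.93.

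Outside these lists, the protein-coding genes nearest in level to 3 members were found by the distance of log2(FPKM + 0.5) over the 6 libraries, among 11825 candidates. Nearest to Catsper1 were Smim23, Cypt2 and Pudp, at distances of 0.146, 0.146 and 0.158. Nearest to Catsper2 were Fam71e1, Spesp1, which encodes a protein of the sperm equatorial segment, and Usp2, at 0.519 to 0.616. For Hvcn1 the candidates all had a mean of 1 FPKM or more, which Hvcn1 did not reach, so the filter set a large distance in advance: Birc3, Tmie and Plek were at 2.03 to 2.06. The 6 libraries fall into 2 groups, so these distances compare little more than the 2 group levels.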

How the data were processed

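The authors deposited FPKM values for 54532 genes in 6 libraries. The submitters' processing notes name HISAT2 2.0.5 and the build mm10. The counter, annotation release and strand handling were not given in the sources used here. Multiplied by gene length, 100% of nonzero values were whole multiples of 1 read within 0.01 read, so the reads were recovered. The deposited divisor, over the total of recovered reads, was 0.691 to 0.774 for control and 1.37 to 1.42 for knockout libraries, which lowers knockout values against shares of reads.

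Groups and replicate numbers came from the sample titles. The 16791 genes whose mean reached 1 FPKM were fitted on log2(FPKM + 0.5) by limma 3.58.1 (R 4.3.3), with a mean-variance trend, Benjamini-Hochberg adjustment over all genes tested and a threshold of 0.05. The fit was also run on simulated libraries with few changed genes, balanced up and down and scaled by their read totals. Those settings differ from these data, so that run does not cover a shift as wide as the present one. Single values used exact permutation tests; read ratios used exact 95% intervals, which cover counting error only. The members and gene lists were chosen with earlier results of these data known. Named were the 10 members, the genes of the CatSper complex and ion transport lists, the relatives that passed the filter, markers at 0, and the 3 genes nearest to Catsper1, Catsper2 and Hvcn1; Bcas2, Stra8, Pdia3 and Tctn1 were named after their values were seen. Alternatives were other pseudocounts, filters and scalings, no trend, array weights, limma voom on the recovered reads, a replicate block and leaving out each library. Further fits of Hvcn1 with no filter were added after the data were seen. Other computations used numpy 2.4.6, scipy 1.17.1 and pandas 2.3.3 under Python 3.11.15, and plots used matplotlib 3.10.9.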

Additional observations from a re-analysis of the deposited data

How the results depend on the processing

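The 9 channel genes tested kept their direction and call under all 18 alternatives each (162 values, largest limma adjusted p 3.4e-06), with 9 called lower in each. Without a filter 1 member, Hvcn1, was called higher; fits of it added after the data were seen gave log2 fold changes of 0.54 to 2.01. Over all genes, 5320 were called lower and 3227 higher with a filter at 5 FPKM, which tests fewer genes, against 8462 and 6075. Of the scalings, 3 reversed the balance of calls: 6084 lower and 9109 higher with FPKM rescaled to sum to 1000000, 6187 and 8745 after quantile normalization, and 6527 and 8491 per 1000000 reads. Leaving out each library gave 8270 to 8373 lower and 5749 to 5934 higher.

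Among relatives of the member channels, 8 of 16 were called lower and 3 higher without a filter, beside 32.8% and 21.6% of all genes. At 5 FPKM only 1 relative was tested, with 1 lower and 0 higher. With the filter at 1 FPKM, 4 of the 7 relatives tested were called higher with FPKM rescaled to sum to 1000000, under quantile normalization and per 1000000 reads. Their median turned to 0.93, 0.59 and 0.62 under these scalings, and to 0.010 with voom. In the ion transport list 2 were called higher with FPKM rescaled and under quantile normalization, 0 at 5 FPKM and with the replicate block, and 0 to 1 without each library. Prkaca turned to 0.26 with FPKM rescaled and 0.48 under quantile normalization. The cause was not tested.

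The labels do not state that a shared replicate number pairs libraries, so the numbers were not taken as pairs. Deviations from the group mean correlated across genes at -0.122, -0.053 and -0.040 for same-numbered libraries. For differently numbered libraries the values ran from -0.055 to 0.095. With 3 libraries in each group these values cannot exclude pairing. With the replicate block 8364 genes were lower and 5930 higher, and no member's call changed. Depth limits Catsper1, Catsper3 and Catsper4, with 2, 5 and 7 knockout reads in all, and Hvcn1, with 14 control reads.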
